A study of Mus musculus with 20 samples.

Results

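The expressed members of the numbered mouse Zfp family of zinc finger genes were examined in single 8-cell (8C) embryos with and without maternal G9a. Members were chosen by their symbol (Zfp followed by a number, leaving out Zfp57, Zfp42, Zfp352 and Zfp622) and selected on their counts, with at least 10 counts required in at least 10 of 19 embryos. Of 367 such symbols among 34937 annotated genes, 227 met this rule, and 140 did not, 18 of them with no count in any embryo. The rule used the level of the genes across both groups and not the difference between the groups. At its edge, 10 members reached 10 counts in exactly 10 embryos (Zfp69, Zfp605, Zfp422, Zfp111, Zfp688, Zfp433, Zfp2, Zfp759, Zfp53 and Zfp13), at mean levels between 0.684 and 3.83 CPM, the counts scaled to library size. A further 11 genes did so in 9 embryos and were left out (Zfp275, Zfp787, Zfp418, Zfp235, Zfp976, Zfp957, Zfp317, Zfp26, Zfp953, Zfp870 and Zfp563), at 0.592 to 3.09 CPM.

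Zinc finger proteins of the C2H2 kind read DNA through tandem fingers, each of which contacts a short stretch of bases. Many of the mouse genes also encode a KRAB domain, which recruits the co-repressor Trim28 and through it the H3K9 methyltransferase Setdb1, HP1 proteins and histone deacetylases, and these proteins are known for silencing retroelements and protecting imprints in the early embryo. KRAB zinc finger genes multiplied by local duplication and lie in clusters of similar neighbours. G9a (encoded by Ehmt2) and its partner GLP (Ehmt1) place H3K9me2, and their complex also holds zinc finger proteins.

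RNA was measured in 9 control embryos (Ehmt2Cntr) and 10 maternally depleted embryos (Ehmt2Mat) collected at E2.5, on a mixed genetic background, and only morphologically normal embryos had been taken. Control mothers carried 1 conditional and 1 wild type allele (Ehmt2 F/+) and mutant mothers 1 conditional and 1 null allele (Ehmt2 F/-). Both kinds of mother carried Zp3-Cre, whose promoter is active in growing oocytes, so the controls also derive from oocytes with a recombined allele. Genotyping of the embryos themselves put 6 controls at +/+ and 3 at +/-, and divided the Ehmt2Mat group into 5 embryos at +/- and 5 at -/-. Maternal and zygotic genotype therefore overlap between the groups in the +/- embryos alone.

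Total counts per embryo lay between 8231646 and 30602434, and the lowest belonged to Ehmt2Mat embryo 3, whose profile over all genes also had the lowest mean correlation with the other embryos (0.7195, against 0.758 to 0.834 for the rest). The 8C genes Dppa3, Tead4, Tfap2c and Pou5f1 had at least 10 counts in all 19 embryos, and the granulosa cell genes Amh, Foxl2 and Has2 were at 0 in all of them. The granulosa gene Inha reached 38.2 CPM in Ehmt2Mat embryo 3 and had 10 counts in 3 embryos. Ehmt2 itself was at 66.6 to 253 CPM in controls (median 133) and 58.7 to 159 CPM in Ehmt2Mat embryos (median 94.9), a log2 fold change of -0.47 ± 0.24 (SE) that did not pass the test (edgeR adjusted p = 0.233). Counts over the whole gene include exons outside the conditional deletion and transcripts of the zygotic genome, so this is a weak check of the labels.

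Together the 227 genes took a small and similar share of the RNA in both groups. Their summed counts were 0.783% to 1.08% of an embryo's total in controls (median 0.860%) and 0.700% to 0.919% in Ehmt2Mat embryos (median 0.817%), and the ranges overlapped. Levels differed between members far more than between groups. Per kb of exon, mean levels ran from 0.175 to 249 CPM, with a median of 2.72. The 5 highest on this scale were Zfp296 (249 CPM per kb), Zfp207 (144), Zfp706 (123), Zfp598 (66.1) and Zfp131 (63.1), and none of these encodes a KRAB domain by the search used here. The scale divides by exon length although the cDNA was 3'-biased, so this ranking depends on it. By CPM alone, the KRAB member Zfp568 (151 to 407 CPM in controls) was as high as Zfp598 (192 to 315) and Zfp131 (112 to 391). In 97 members, every embryo had at least 10 counts, and 18 members reached 10 counts in fewer than 5 embryos of a group.

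In the comparison of Ehmt2Mat with Ehmt2Cntr embryos, which asks how the loss of maternal G9a alters transcripts at the 8C stage, 7 of 227 members passed the test (edgeR quasi-likelihood test, Benjamini-Hochberg over 11754 genes, adjusted p under 0.05). Zfp36, Zfp330 and Zfp979 rose, and Zfp706, Zfp644, Zfp704 and Zfp532 fell. These are 3.08% of the members, where 9.35% of all genes tested were called (4.37% rose and 4.98% fell). In an embryo lysed whole, fewer cells with a transcript and less of it per cell cannot be told apart. An unadjusted p under 0.05 was found in 31 members, next to 23.3% of all genes. The median log2 fold change was 0.02 over the members and -0.04 over all genes tested, and 114 members had a positive and 113 a negative value.

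**Figure D1:**
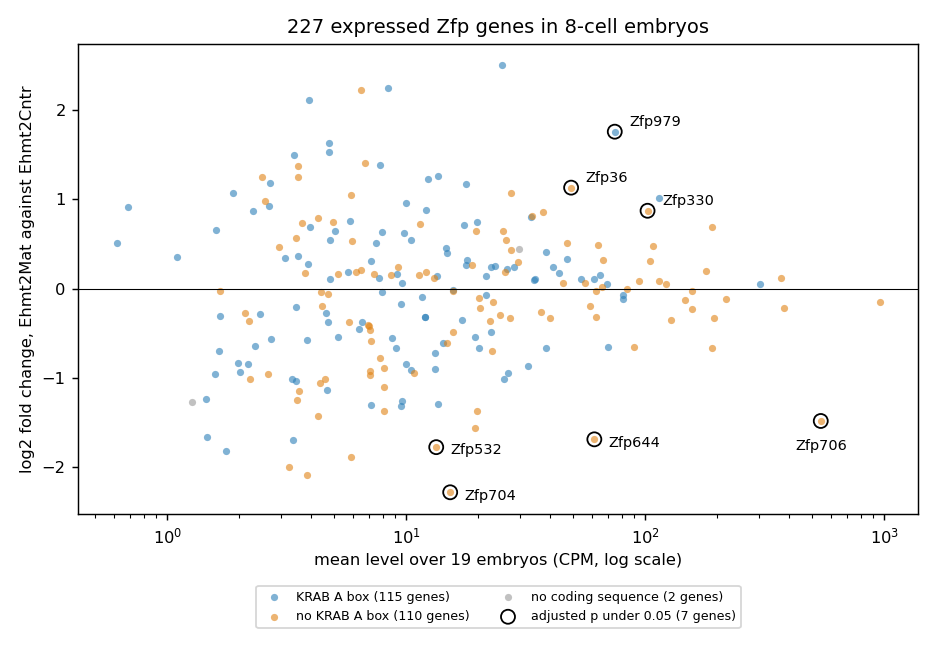
Each point is 1 of 227 expressed Zfp genes, with its mean CPM over 19 embryos on a log x axis and its log2 fold change (Ehmt2Mat against Ehmt2Cntr) on the y axis; colours mark a KRAB A box in the coding sequence, and rings mark the 7 genes with an edgeR adjusted p under 0.05. The fold changes spread evenly around 0 and widely at low levels, and 6 of the 7 ringed genes lack a KRAB A box.

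The members were on average low transcripts, and their fold changes were correspondingly uncertain. Their median level was 11.3 CPM, against 20.4 CPM over all genes tested, and the median SE of the log2 fold change was 0.60 against 0.42. When all genes were split by mean level into 4 bins of equal size, 67 members were in the lowest bin and 0 of them were called by edgeR, beside 1.29% of all genes there. The second bin held 83 members with 2 called (4.53% of all genes), the third 51 with 2 called (10.8%), and the highest 26 with 3 called (20.8%). In each bin the called share of members was below that of all genes, on counts of 3 or fewer. For 0 of the 227 members did all Ehmt2Mat embryos lie above, or all below, every control. This count was not made over all genes, so it says nothing about members in particular.

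Zfp706, a small zinc finger protein implicated in the exit of embryonic stem cells from self-renewal, was the most abundant member to change. It lies on chromosome 15 (36997031 to 37007402, minus strand, GRCm38). Its level was 444 CPM in the lowest control, 823 in the median and 1256 in the highest, and 129, 273 and 708 CPM in Ehmt2Mat embryos. In 9 of 10 Ehmt2Mat embryos it was below every control, and the exception was embryo 10. Group means were 818 ± 228 CPM in controls (SD, n = 9) and 293 ± 161 CPM in mutants (SD, n = 10). The log2 fold change was -1.48 ± 0.25 (edgeR adjusted p = 0.000922).

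Zfp644 encodes a C2H2 protein without a KRAB domain that binds G9a and GLP. The gene occupies chromosome 5 from 106616739 to 106697287 (minus strand). Its lowest, median and highest levels were 17.6, 104.5 and 157 CPM in controls and 6.18, 33.1 and 65.8 CPM in Ehmt2Mat embryos. All 10 Ehmt2Mat embryos lay below the control median, but the groups overlapped, because controls 6 and 7 (17.6 and 18.5 CPM) were as low as the mutants. The log2 fold change was -1.69 ± 0.43 (edgeR adjusted p = 0.0146). Zfp462, another KRAB-free partner of the complex, was close to the limit of detection, with a median of 2.31 CPM in controls and 4.45 CPM in Ehmt2Mat embryos, and its log2 fold change was 0.79 ± 0.89 (edgeR adjusted p = 0.657).

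The other 2 members that fell were low and variable in the controls. Zfp704 (chromosome 3, 9427020 to 9610085, minus strand) was at 0.296 to 58.4 CPM in controls (median 25.2) and at 0.853 to 11.4 CPM in Ehmt2Mat embryos (median 4.36). The lowest value of all was in control 9, with 5 counts, so that the groups overlapped, and the log2 fold change was -2.28 ± 0.60 (edgeR adjusted p = 0.0171). Of its exon bases, 16.6% are also covered by C030034L19Rik on the opposite strand, and reads were counted without regard to strand. Zfp532, on chromosome 18, ranged over 2.61 to 50.4 CPM in controls (median 22.1) and over 0.876 to 12.1 CPM in Ehmt2Mat embryos (median 5.48), with a log2 fold change of -1.77 ± 0.55 (edgeR adjusted p = 0.0406). This call was lost in 11 of the 19 fits that left out 1 embryo (controls 2, 6, 7, 8 and 9 and mutants 2, 4, 6, 7, 9 and 10), with edgeR adjusted p up to 0.0945, and in the +/- embryos alone the sign turned (0.27).

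Of the members that rose, Zfp36 and Zfp330 hold no C2H2 finger. Zfp36 (tristetraprolin) binds AU-rich elements in mRNAs through CCCH fingers and promotes their decay, and its gene is on chromosome 7 (28376784 to 28379255, minus strand). Its lowest, median and highest levels were 9.85, 30.8 and 47.3 CPM in controls and 21.6, 62.6 and 120.4 CPM in Ehmt2Mat embryos. In 7 of 10 Ehmt2Mat embryos it was above every control, and embryos 1, 2 and 4 lay within the control range. The log2 fold change was 1.13 ± 0.31 (edgeR adjusted p = 0.0224).

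Zfp330 encodes a nucleolar protein (chromosome 8, 82763621 to 82774160, minus strand). Controls were at 27.4 to 107 CPM (median 75.1) and Ehmt2Mat embryos at 92.3 to 219 CPM (median 124), with 6 mutants above every control and all 10 above the control median. The log2 fold change was 0.87 ± 0.25 (edgeR adjusted p = 0.0306), and this call was lost without control 6, 7 or 8 or mutant 5 or 9 (edgeR adjusted p up to 0.0635). Zfp979, a KRAB gene of chromosome 4, was the third to rise and is described with its neighbours.

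**Figure D2:**
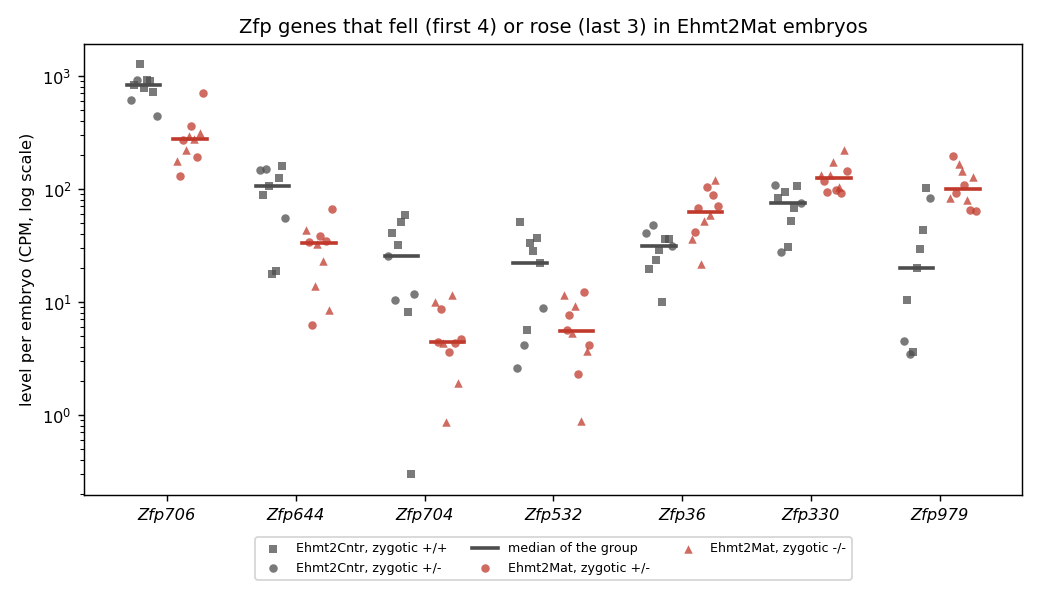
CPM on a log y axis of the 7 members with an edgeR adjusted p under 0.05 in each of 9 Ehmt2Cntr (grey) and 10 Ehmt2Mat (red) embryos; marker shapes give the zygotic genotype and bars the group medians. Zfp706 shows the clearest separation, with 9 of 10 Ehmt2Mat embryos below every control, and the groups overlap in all 7 genes.

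The translated coding sequences were searched for the A box of the KRAB domain and for C2H2 fingers, neither of which the choice of members had used. A KRAB A box was found in 115 members and not in 110, and 2 members (Zfp939 and Zfp125) had no coding sequence in the annotation. KRAB members had a median of 12 fingers and a mean level with a median of 9.55 CPM. Members without the domain had a median of 8 fingers and 15.5 CPM. By edgeR 1 of 115 KRAB members (Zfp979) and 6 of 110 without KRAB were called, beside 9.35% of all genes. By DESeq2 the counts were 6 and 11, beside 13.4% of all genes, and at an unadjusted p under 0.05 in edgeR they were 14 and 17, beside 23.3%. A difference between the classes was not tested. The median log2 fold change was 0.10 in the KRAB class and -0.03 in the other. Besides Zfp36 and Zfp330, the search found no C2H2 finger in Zfp935, Zfp839 and Zfp703.

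Of the 5 KRAB members listed for known roles in silencing, 0 passed the edgeR test, 0 had an unadjusted p under 0.05 and 0 were called by DESeq2. Over all genes these shares were 9.35%, 23.3% and 13.4%. Zfp568, which represses a placental promoter of Igf2, was the most abundant of them, at 151 to 407 CPM in controls and 219.9 to 416 CPM in Ehmt2Mat embryos (medians 323 and 286), with a log2 fold change of 0.05 ± 0.18 (edgeR adjusted p = 0.919). Zfp809, which recognises retroviral primer binding sites, had medians of 20.7 CPM in controls and 17.2 CPM in mutants and a log2 fold change of -0.54 ± 0.41 (edgeR adjusted p = 0.480). Zfp932, a repressor of endogenous retroviruses, was at 0.06 ± 0.36. Zfp819, also linked to retrotransposons, was at -0.72 ± 0.64, and Zfp445, which helps to maintain imprints, at -1.24 ± 1.01. Zfp445 was barely detected, with a median of 1.24 CPM in controls and 0.538 CPM in Ehmt2Mat embryos.

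By edgeR 0 of the 4 members with roles in pluripotency and the blastocyst were called, beside 9.35% of all genes. Zfp296, a zinc finger protein of pluripotent cells and the highest member per kb, was at 224 to 628 CPM in controls (median 422) and at 64.7 to 940.2 CPM in Ehmt2Mat embryos (median 317.5), so that the mutants spread beyond the controls on both sides (log2 fold change -0.22 ± 0.34). Zfp830, which is needed for survival of the early embryo, had a median of 23.5 CPM in controls and 41.3 CPM in mutants, with 6 of 10 mutants above every control. Its log2 fold change of 0.81 ± 0.29 missed the threshold by edgeR (edgeR adjusted p = 0.0834). DESeq2 called it (DESeq2 adjusted p = 0.0348), beside 13.4% of all genes. Zfp281 and Zfp217, both regulators of embryonic stem cells, had log2 fold changes of -0.03 ± 0.44 and -0.00 ± 0.24.

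Of 8 members whose proteins act on RNA or ribosomes, only Zfp36 was called, by edgeR and by DESeq2, beside 9.35% and 13.4% of all genes. Zfp598, an E3 ligase of collided ribosomes, was at 192 to 315 CPM in controls and 119 to 359 CPM in mutants (log2 fold change -0.12 ± 0.19). Zfp106, an RNA-binding protein, had medians of 339 and 375 CPM (0.12 ± 0.18). Zfp638 (-0.35 ± 0.58), Zfp346 (-0.30 ± 0.53), Zfp593 (-0.26 ± 0.39), Zfp473 (-0.92 ± 0.85) and Zfp326 (-0.03 ± 1.17) also remained above the threshold. For Zfp593, a ribosome biogenesis factor, 77.9% of the exon bases are shared with E130218I03Rik on the opposite strand, so its value is uncertain.

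Among regulators of promoters and chromatin, Zfp148 (log2 fold change -0.65 ± 0.27, edgeR adjusted p = 0.137) and Zfp335 (0.48 ± 0.21, edgeR adjusted p = 0.166) had the largest values. Zfp148 binds GC-rich promoters, and 1 of 10 mutants exceeded its control median. Zfp335 belongs to a histone methyltransferase complex, and all 10 mutants exceeded its control median. Zfp143 (0.20 ± 0.17), Zfp410 (0.08 ± 0.22) and Zfp451 (-0.31 ± 0.28) were closer to 0. Zfp207, a kinetochore and microtubule protein and the most abundant member by CPM, was at 840.3 to 1272 CPM in controls and 688 to 1039 CPM in mutants, with a log2 fold change of -0.15 ± 0.13 (edgeR adjusted p = 0.534). Zfp131, the last of the 5 highest per kb, was at -0.33 ± 0.23.

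The members lie on 20 chromosomes, with 51 on chromosome 7, 29 on chromosome 17 and 19 on chromosome 13. Joining neighbours whose starts are at most 500 kb apart gave 22 clusters of 3 or more members, which hold 111 of the 227. Clusters contain 80 of the 115 KRAB members (69.6%) and 31 of the 110 without KRAB (28.2%). Of the clustered members 2 rose (Zfp979 and Zfp36) and 0 fell by edgeR, with 12 at an unadjusted p under 0.05 and 6 called by DESeq2. Of the 116 others 1 rose and 4 fell, with 19 at an unadjusted p under 0.05 and 11 called by DESeq2. Over all genes these rules called 9.35% (edgeR), 23.3% (unadjusted) and 13.4% (DESeq2). Cluster medians of the log2 fold change ran from -0.70 (Zfp653 to Zfp810, chromosome 9, singled out after its values were seen) to 0.80 on chromosome 4.

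**Figure D3:**
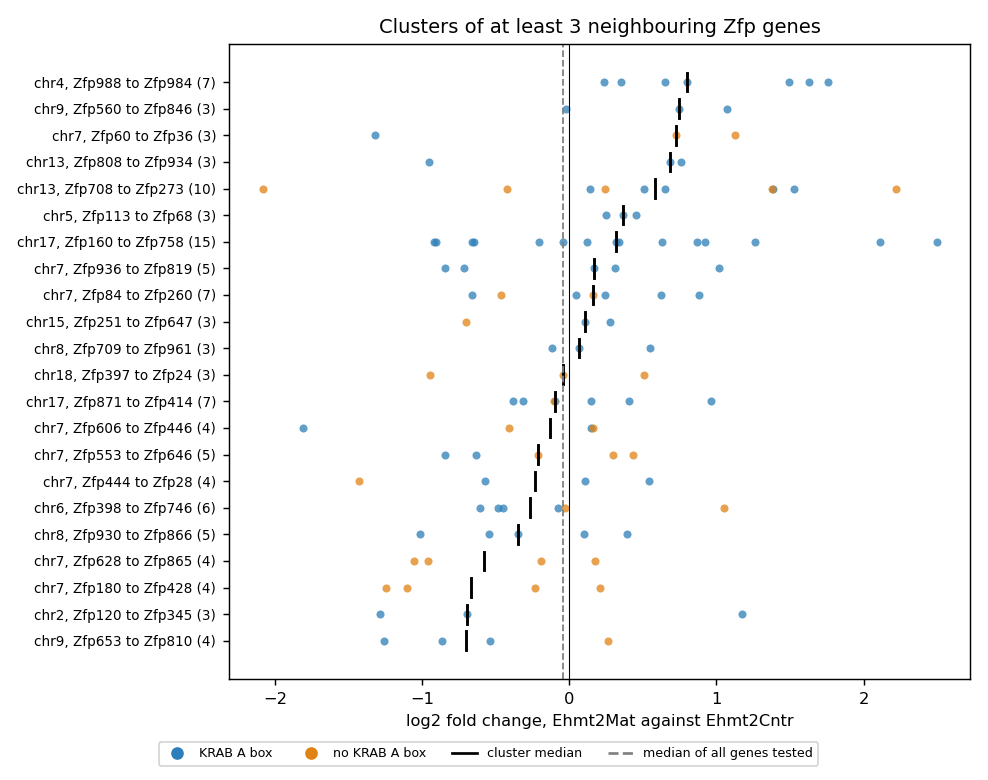
Log2 fold change (x axis, Ehmt2Mat against Ehmt2Cntr) of each member in the 22 clusters of at least 3 neighbouring members, 1 row per cluster with its first and last gene and its number of members; blue points have a KRAB A box and orange points none, black ticks are cluster medians and the dashed line is the median of all genes tested (-0.04). The chromosome 4 cluster at the top has all 7 members above 0, and most other clusters lie on both sides of 0.

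Pairs of neighbours had a higher median correlation across embryos than other pairs, but not in every cluster, and this is a description with no test. For each pair of members the correlation of log2 CPM over the 19 embryos was computed after the mean of each group was removed, so that the difference between groups does not enter. The median Pearson r was 0.25 over the 312 pairs inside clusters, 0.06 over 2195 pairs on the same chromosome outside a shared cluster and 0.06 over 23144 pairs on different chromosomes. The median Spearman rho was 0.23, 0.05 and 0.05 in the same order. Of the 312 pairs, 126 belong to the chromosome 17 cluster of 15 members and the chromosome 4 cluster of 7. Over the 22 clusters the median r had a median of 0.13 and a lowest value of -0.18, and in 7 clusters it was below the median of pairs on different chromosomes. All pairs share the same 19 libraries and their depths.

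Reads shared between similar neighbours could raise such a correlation, since multi-mapping alignments were kept at counting. Of the 50-base windows along each gene's transcripts, a median of 1.66% per member also occur in another gene, 58 members share 0 windows, 61 share at least 10% and 12 at least 50%. Of the 61, edgeR called 3 (1 rose and 2 fell), and of the 166 below 10% it called 4 (2 rose and 2 fell), beside 9.35% of all genes. The part of shared reads in these calls was not tested. With the 166 members below 10% alone, the median r inside clusters was 0.21 over 173 pairs, against 0.02 for the rest of the same chromosome and 0.04 for different chromosomes. The fold changes showed less of a pattern. Signs of the log2 fold change were equal in 53.2% of pairs inside clusters and in 49.8% of pairs on different chromosomes, and in 46.2% and 50.2% among members below 10%.

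**Figure D4:**
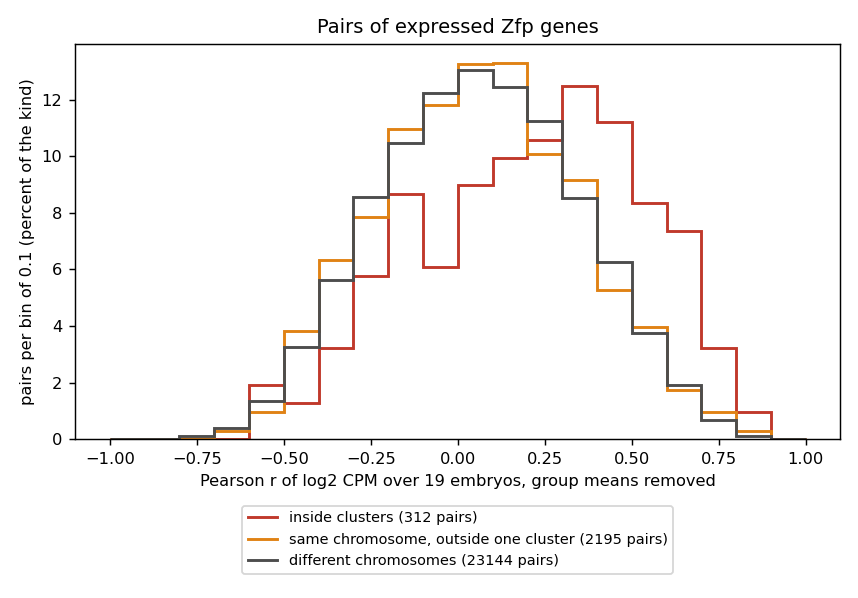
Distribution of Pearson r between pairs of members (log2 CPM over 19 embryos, group means removed), as the percent of pairs in each bin of 0.1, for 312 pairs inside clusters, 2195 pairs on the same chromosome outside a shared cluster and 23144 pairs on different chromosomes. The distribution inside clusters is shifted to higher r (median 0.25 against 0.06 and 0.06).

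The cluster with the largest median was on chromosome 4 (147305674 to 147809788), where Zfp988, Zfp978, Zfp982, Zfp985, Zfp979, Zfp534 and Zfp984 lie within 0.504 Mb. All 7 encode a KRAB A box and all 7 had a positive log2 fold change, with a median of 0.80 and a range of 0.24 to 1.75. By edgeR 1 was called and by DESeq2 2 (Zfp979 and Zfp534), beside 9.35% and 13.4% of all genes. The median r between its pairs was 0.61 (0.43 to 0.89, 21 pairs), the highest of the 22 clusters. A median of 54.5% of their windows also occur in another gene. The Zfp gene sharing most windows lay outside the cluster for 5 of the 7 (Zfp987, Zfp600 or Zfp989, all on chromosome 4), and the part of shared reads in the levels and the correlation was not tested. Upstream of their RefSeq start sites (GRCm38.p6), 6 of the 7 (all but Zfp978, for which no window was used here) hold a similar stretch. It is printed because this cluster had the largest absolute median log2 fold change of the 22, so the choice used the group difference. Each stretch starts at the longest run of bases shared by all 6, which is in lower case. It is given in the direction of transcription, with 8 further bases common to all 6 in capitals.
Zfp988 (chr4:147305490-147305603, plus strand): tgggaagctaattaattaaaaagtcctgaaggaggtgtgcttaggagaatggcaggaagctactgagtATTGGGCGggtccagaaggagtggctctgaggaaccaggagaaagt
Zfp982 (chr4:147492266-147492385, plus strand): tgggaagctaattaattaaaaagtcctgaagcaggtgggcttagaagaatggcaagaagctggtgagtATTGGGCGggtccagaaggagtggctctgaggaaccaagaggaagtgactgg
Zfp985 (chr4:147553141-147553260, plus strand): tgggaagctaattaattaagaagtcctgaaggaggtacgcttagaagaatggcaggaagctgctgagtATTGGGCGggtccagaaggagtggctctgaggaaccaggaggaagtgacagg
Zfp979 (chr4:147642530-147642649, minus strand): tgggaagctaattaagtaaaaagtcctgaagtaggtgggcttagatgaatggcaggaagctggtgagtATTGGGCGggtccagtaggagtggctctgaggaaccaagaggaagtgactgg
Zfp534 (chr4:147702632-147702737, minus strand): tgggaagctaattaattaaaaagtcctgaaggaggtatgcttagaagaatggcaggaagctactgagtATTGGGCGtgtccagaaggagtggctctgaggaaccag
Zfp984 (chr4:147809823-147809942, minus strand): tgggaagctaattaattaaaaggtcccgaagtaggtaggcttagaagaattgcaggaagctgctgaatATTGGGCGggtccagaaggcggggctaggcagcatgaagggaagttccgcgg
Identity between these stretches was 78% to 95.8% over 15 pairs (median 85%). The 8 bases ATTGGGCG were picked after the sequences and the values had been seen, and they were searched on both strands as the only motif. They occur in 0.557% of 32851 RefSeq promoters of 300 bases (250 before the start and 50 after it), and in 9 of 233 promoters of members (3.86%). All 9 belong to KRAB members: the 6 above, Zfp981 and Zfp980 elsewhere on chromosome 4, and Zfp947 on chromosome 17. Because the motif was taken from 6 of these 9, their share of promoters and their signs were set by that choice. Outside the cluster the 3 further members had log2 fold changes of 2.497 (Zfp947), 0.27 (Zfp981) and -0.31 (Zfp980), and 0 of the 3 were called by edgeR, while DESeq2 called Zfp947. The motif was in 0 of 115 promoters of members without KRAB. RefSeq promoters were matched for 185 of the 227 members.

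Zfp979 was the member of the cluster that passed the edgeR test. Its lowest, median and highest levels were 3.43, 19.8 and 101.5 CPM in controls and 63.1, 100.1 and 193 CPM in Ehmt2Mat embryos, a mean of 33.1 ± 36.1 (SD, n = 9) against 112 ± 44.3 (SD, n = 10). The log2 fold change was 1.75 ± 0.53 (edgeR adjusted p = 0.0359). All 10 mutants exceeded the control median and 5 exceeded every control, and the call was lost in 10 of 19 fits with 1 embryo left out (controls 1, 2, 3, 5, 6 and 7 and mutants 2, 4, 5 and 9, edgeR adjusted p up to 0.0682). Of its windows 27.1% occur in another gene, most of them in Zfp600.

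The controls were not uniform at this locus or at some others. Zfp979 was at 3.43 to 10.4 CPM in controls 1, 2, 3 and 5, at 19.8 to 43.4 CPM in controls 6, 7 and 8, and at 101.5 and 81.8 CPM in controls 9 and 10, the last within the range of the mutants. Zfp985 was at 0.985, 1.81, 2.17 and 4.70 CPM in controls 1, 2, 3 and 5, at 30.6 to 56.5 CPM in the other 5 controls and at 13.2 to 61.3 CPM in Ehmt2Mat embryos. The same 4 controls had the 4 lowest Zfp985 values of all 19 embryos. They also had 167 to 189 members with at least 10 counts, against 202 to 221 in the other 5 controls and 158 to 226 in Ehmt2Mat embryos. Total counts in these 4 embryos, 12985149 to 21278141, overlapped with those of the rest. They are the lowest-numbered controls analysed, and the other 5 are numbered 6 to 10. The labels name no litter or batch, so what the numbering stands for cannot be told. The same 4 controls were low for some members elsewhere, picked after the values were seen. Zfp715 (chromosome 7) was at 0.985 to 3.07 CPM in them and at 8.83 to 44.3 CPM in the other 5. Zfp51 (chromosome 17) was at 5.30 to 19.5 and at 70.4 to 323 CPM. Zfp706 did not split so, at 615 to 1256 and 444 to 922 CPM. The part of these embryos in the cluster's difference and pair correlations was not tested.

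The other members of the cluster were not called by edgeR. Zfp534 had medians of 2.21 CPM in controls and 6.90 CPM in Ehmt2Mat embryos, with 7 mutants above every control. Its log2 fold change was 1.63 ± 0.61 (edgeR adjusted p = 0.0933), and DESeq2 called it (DESeq2 adjusted p = 0.0137). Zfp988 was at 1.49 ± 0.74 and Zfp984 at 0.80 ± 0.39, with medians of 26.8 and 40.4 CPM in controls and mutants for the latter. Zfp982 (0.65 ± 0.57), Zfp978 (0.35 ± 1.00) and Zfp985 (0.24 ± 0.59) differed by little more than their errors or less. In all 19 fits with 1 embryo left out the 7 values stayed above 0, with medians of 0.65 to 1.03. The median was 1.51 with embryo number as a block, and 1.49 in the +/- embryos alone, where 6 of 7 values were positive and Zfp978 was at -0.48. The +/- controls are embryos 1, 3 and 10, and embryos 1 and 3 are among the low controls described above.

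**Figure D5:**
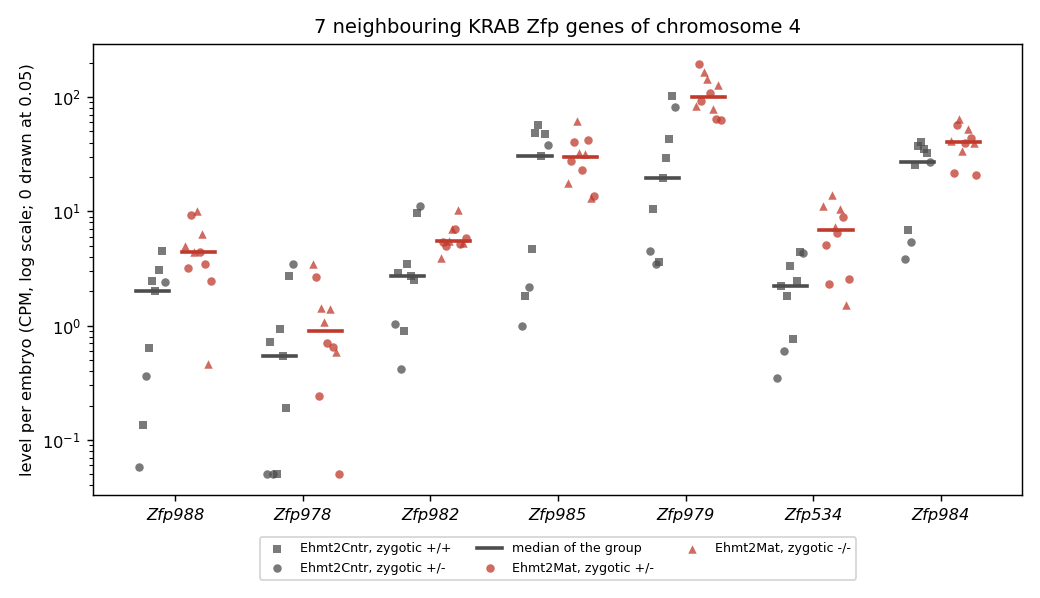
CPM on a log y axis of the 7 neighbouring KRAB members of chromosome 4 in each of 9 Ehmt2Cntr (grey) and 10 Ehmt2Mat (red) embryos, with marker shapes for the zygotic genotype, bars for group medians and values of 0 drawn at 0.05 CPM. Control values spread over more than those of the mutants for Zfp985, Zfp979 and Zfp984, with 4 controls well below the others for Zfp985.

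The largest cluster, on chromosome 17 (21008941 to 22377281), holds 15 members, all with a KRAB A box. Here 9 values were positive and 6 negative, with a median of 0.31. By edgeR 0 of the 15 were called and 3 had an unadjusted p under 0.05, beside 9.35% and 23.3% of all genes. DESeq2 called 2 (Zfp947 and Zfp229), beside 13.4% of all genes. The median pair r was 0.37 over 105 pairs, with a median of 2.87% shared windows. The largest values were those of Zfp947 (2.497 ± 0.86, edgeR adjusted p = 0.0680), Zfp943 (2.11 ± 0.91) and Zfp229 (1.26 ± 0.46). Zfp947 had a median of 1.23 CPM in controls and 30.2 CPM in Ehmt2Mat embryos, but controls reached 29.1 CPM and the lowest mutant was at 1.15 CPM.

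Further along the same cluster, Zfp51 was its most abundant gene and went the other way (-0.65 ± 0.53). Its controls 6, 8, 9 and 10 lay above the highest mutant at 92.4 CPM, with control 9 the highest at 323 CPM. Zfp820 (-0.66 ± 0.58) was likewise highest in control 9, at 127 CPM. The remaining positive members were Zfp54 (0.92 ± 1.11), Zfp677 (0.87 ± 1.09), Zfp944 (0.63 ± 0.66), Zfp760 (0.34 ± 1.11), Zfp948 (0.31 ± 0.60) and Zfp52 (0.12 ± 0.92). The remaining negative members were Zfp942 (-0.92 ± 0.71), Zfp160 (-0.90 ± 0.74), Zfp53 (-0.21 ± 1.14) and Zfp758 (-0.04 ± 0.68).

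Clusters on chromosomes 9 and 7 came next by median. On chromosome 9 (20345136 to 20595194, median 0.75), Zfp560 (1.07 ± 0.92) and Zfp426 (0.75 ± 0.43) were above 0 and Zfp846 was at -0.02 ± 0.49. Of the 3, 0 were called by edgeR, at an unadjusted p under 0.05 or by DESeq2, beside 9.35%, 23.3% and 13.4% of all genes. On chromosome 7 (27731389 to 28379255, median 0.73) the group joined the CCCH gene Zfp36 to Zfp974 (0.73 ± 0.62) and Zfp60 (-1.32 ± 0.60, edgeR adjusted p = 0.186), and neither of these last genes was called. All 10 mutants lay below the control median for Zfp60.

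Within the Ehmt2Mat group, the comparison of 5 zygotic -/- with 5 zygotic +/- embryos, which asks what the zygotic copy adds, called 0 of 221 members and 0.0% of 12195 genes by edgeR, and 0 members by DESeq2. At an unadjusted p under 0.05 there were 2 members (Zfp157 and Zfp101, named after their values were seen) beside 2.21% of all genes. The median log2 difference (-/- minus +/-) was 0.14 over the members and -0.04 over all genes, with a median SE of 0.71 for members, so moderate differences were not detectable with 5 embryos a side. Zfp706 was at 331 ± 227 CPM in +/- and 255 ± 56.2 CPM in -/- mutants (SD, n = 5 each), both below the control mean of 818.

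The maternal comparison restricted to the +/- embryos (3 controls and 5 mutants) called 0 of 222 members and 0.00746% of 13401 genes by edgeR, with 12 members and 6.76% of genes at an unadjusted p under 0.05. Of the 7 genes called over all embryos, 6 kept their sign there, with log2 fold changes of -1.005 (Zfp706), -1.73 (Zfp644), -1.64 (Zfp704), 0.90 (Zfp36), 0.62 (Zfp330) and 1.75 (Zfp979), and Zfp532 did not. DESeq2 on all 19 embryos called 17 members (11 rose, 6 fell), among them the 7 of edgeR, next to 13.4% of 15365 genes. Its further members were Zfp534, Zfp947, Zfp637, Zfp229, Zfp58, Zfp772, Zfp830 and Zfp791, which rose, and Zfp395 and Zfp655, which fell.

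The partners of KRAB proteins were read from a list of 25 co-repressors and H3K9 or DNA methylation factors, all of which were tested. Of these, 1 rose and 1 fell (8%, beside 9.35% of all genes tested), with a median log2 fold change of -0.12. Trim28, the co-repressor that KRAB domains bind, was at 435 to 807 CPM in controls (median 651) and 463 to 921 CPM in Ehmt2Mat embryos (median 648), a log2 fold change of 0.04 ± 0.16 (edgeR adjusted p = 0.924). Setdb1, the H3K9 methyltransferase recruited by Trim28, had medians of 59.2 and 76.0 CPM (0.41 ± 0.25, edgeR adjusted p = 0.358).

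The list member that rose was Zfp57, a KRAB zinc finger protein of imprint maintenance, from a median of 13.4 to 33.1 CPM (1.07 ± 0.34, edgeR adjusted p = 0.0497). Dnmt3b, a de novo DNA methyltransferase, fell from a median of 47.0 to 26.5 CPM (-1.12 ± 0.32, edgeR adjusted p = 0.0287). Leaving out 1 embryo at a time, the call of Zfp57 was lost in 13 of 19 fits (edgeR adjusted p up to 0.101) and that of Dnmt3b without control 3, 6 or 7 (up to 0.0907). Atrx, a chromatin remodeller that acts with Daxx, missed the threshold (-0.89 ± 0.29, edgeR adjusted p = 0.0540), and Ehmt1 was at -0.00 ± 0.26.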

How the data were processed

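Single embryos at E2.5 were amplified as 3'-biased cDNA and sequenced as single-end reads of 50 bases. Per the file headers, the authors' deposited values are raw counts per gene, made with featureCounts 1.5.0 on alignments to mm10 with Ensembl release 82 (GRCm38). Exons were counted without strand, with multi-mapping reads and reads over several genes kept and a minimum overlap of 10 bases, so antisense neighbours and similar copies share counts. The submitters' processing notes also name TopHat2 and DESeq2. The control embryo numbered 4 was not analysed here.

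Gene IDs were matched to symbols (0.162% of counts had none). Genes kept by filterByExpr were fitted with edgeR 4.0.16 (TMM, quasi-likelihood test, R 4.3.3) on the 9 Ehmt2Cntr and 10 Ehmt2Mat embryos with no covariate, and p-values were adjusted by Benjamini-Hochberg over all genes tested, at 0.05. The zygotic genotypes were compared in the same way within Ehmt2Mat. The same fits were also run on simulated counts with the means, library sizes and dispersions of these data. CPM used TMM library sizes, and log2 CPM a prior count of 2. At these depths 3 counts correspond to 0.098 to 0.364 CPM. The embryos are separate animals, no litter or batch is given, and intervals cover the spread between these embryos. No 2 embryos had identical counts (0 pairs).

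KRAB A boxes (at least 10 of 15 consensus positions) and C2H2 fingers were counted in coding sequences of GENCODE M21 (GRCm38) translated for this purpose. Shared windows of 50 bases were taken from its transcripts, and promoters from RefSeq (GRCm38.p6). Named genes were all members called, members of a role list, the 5 highest per kb, members of the 3 clusters with the largest absolute median and of the largest cluster, those at the edge of the selection rule and the co-repressor list. Members and lists were chosen with earlier results of these data known. Alternatives were DESeq2 1.42.0, other normalizations and filters, thinned counts, other cluster gaps and embryos left out in turn.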

Additional observations from a re-analysis of the deposited data

Results flagged for a closer look

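In 12 of 122 groups of values, for named genes and the summed level, a single embryo lay apart from the rest of its group by Dixon's criterion, which chance gives in about 1 group in 20 (5%). Values are log2 CPM, with the range of the other embryos of the group. Among controls, Zfp704 was at -1.30 in embryo 9 (others 3.05 to 5.87), Zfp819 at -3.19 in embryo 8 (3.08 to 5.33), Zfp229 at -1.39 in embryo 5 (2.5 to 3.78) and Setdb1 at 4.06 in embryo 7 (5.59 to 6.50). Control 9 also had the largest summed Zfp share, 1.08% of counts, against 0.783% to 0.904% in the other controls.

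Among Ehmt2Mat embryos, embryo 3 was low for Zfp410 (5.22, others 6.36 to 7.12), Zfp451 (3.28, others 5.27 to 6.81) and Zfp942 (-0.26, others 1.72 to 3.82), and it was also the embryo with the fewest counts. Embryo 9 was low for Zfp809 (0.76, others 2.80 to 4.84) and Zfp988 (-0.81, others 1.36 to 3.34). Embryo 10 was low for Zfp217 (4.39, others 6.08 to 6.91) and Zfp947 (0.33, others 3.56 to 7.18). The cause of these values was not tested.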

How the results depend on the processing

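The count of 7 members became 17 with DESeq2 and 0 in the +/- embryos alone, which leaves 8 of 19 embryos, and ranged from 4 (without control 6 or control 7) to 9 with single embryos left out. With other normalizations, filters, thinned counts, a minimum fold or another member rule it was 6 to 9. Of the co-repressor list, 2 genes were called, 1 with no filter on low counts, 0 in the +/- embryos alone, and 0 (without control 3) to 3 with each embryo left out. Of 1591 values of single named genes under alternatives, 1546 kept their side of the threshold, 37 lost their call and 7 gained one. The last, a called value, reversed: Zfp532 at 0.27 in the +/- embryos alone. Among the 1546 are 91 values of 19 uncalled genes that changed sign. Of the 60 named genes only the 7 called members had a call to lose, so the 1591 values do not measure how stable the calls were. With 1 embryo left out, Zfp532 lost its call in 11 of 19 fits, Zfp979 in 10 and Zfp330 in 5. Zfp706, Zfp644, Zfp704 and Zfp36 lost theirs in 0.

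With embryo number as a replicate block, 6 members and 1 gene of the co-repressor list were called. Of the 7 members, 3 lost their call there (Zfp644, Zfp704 and Zfp532), and 2 others gained one (Zfp655 and Zfp775, the latter named after its values were seen). Embryos of equal number did not vary together (r from -0.16 to 0.09 over 9 pairs, 0 pairs over 0.1, and 0 controls closest to their own number). Equal numbers were therefore not taken as pairs. In the lowest of 4 bins of level, edgeR called 0 of 67 members beside 1.29% of all genes there, and 2 members and 214 of 2939 genes had an unadjusted p under 0.05; the part of depth was not tested.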

Other observations

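Some pairs of members on different chromosomes varied together as closely as neighbours did. With group means removed, the log2 CPM of Zfp944 (chromosome 17) and Zfp738 (chromosome 13) had a Pearson r of 0.91 over 19 embryos, Zfp597 and Zfp451 one of 0.90 with a Spearman rho of 0.66, and Zfp715 (chromosome 7) and Zfp988 (chromosome 4) one of 0.86. Among neighbours, Zfp985 and Zfp984 reached 0.89. These pairs were picked as the highest of all pairs after the values were seen, and they share libraries and depth. Ehmt2Mat embryo 3 was the lowest of all for both Zfp597 (0.242 CPM) and Zfp451 (9.57 CPM). Windows shared with other genes were 10.4% in Zfp944, 17.8% in Zfp738, 24.7% in Zfp597 and 0.106% in Zfp451. They were 0% in Zfp715, 68.1% in Zfp988, 15.9% in Zfp985 and 54.5% in Zfp984. The part of shared reads was not tested.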
